A study of Mus musculus with 6 samples.

Results

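The muscarinic receptors bind acetylcholine and the histamine receptors bind histamine, and olanzapine is an antagonist at the muscarinic receptors and at the H1 histamine receptor. The expression of their genes was examined in septal RNA-seq libraries. The 8 genes were taken by symbol, as Chrm1 to Chrm5 and Hrh1 to Hrh3, out of the 35415 genes in the deposited files. All 8 were detected in every library. The rule that picks them is a list of symbols and uses no measured value, although the list was drawn up with earlier results of these data known. Female wild-type C57BL/6 mice received control chow or chow supplemented with olanzapine, a second-generation antipsychotic, for 12 weeks from young adulthood. The lateral septum was dissected, and tissue of 3 mice went into each library. There were 3 control pools and 3 olanzapine pools, and nothing was genetically altered in either group. P-values measure the spread between pools, not that between single mice. Because the tissue holds many cell types, fewer cells of a type and less RNA per cell cannot be told apart.

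All of these receptors are G protein-coupled. The M1, M3 and M5 muscarinic receptors (Chrm1, Chrm3, Chrm5) and the H1 histamine receptor (Hrh1) act through Gq, which activates phospholipase C and releases calcium. The M2 and M4 receptors (Chrm2, Chrm4) and the H3 receptor (Hrh3) act through Gi/o, which lowers cyclic AMP and opens inward-rectifier potassium channels. The H2 receptor (Hrh2) acts through Gs, which raises cyclic AMP. M2 and H3 are also known as presynaptic receptors that limit transmitter release. The septum receives histamine fibres from the tuberomammillary nucleus, and its medial part holds cholinergic neurons that project to the hippocampus. Antagonism at H1 is widely linked to weight gain under antipsychotics, and antagonism at M3 to impaired insulin release.

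The counts on genes summed to between 38208153 and 39868872 per pool. All 8 markers listed for lateral septum neurons were detected, with summed FPKM of 167 to 199 in the control pools and 120 to 184 in the olanzapine pools. FPKM is the count scaled to the length of the gene and to the total of the library, so that levels can be compared between genes. Olanzapine pool 1 stood apart from the other pools in its cortical markers. Its 9 cortical glutamatergic markers summed to 292 FPKM, against 18.2 to 34.2 in the control pools and 16.4 and 11.8 in olanzapine pools 2 and 3. The marker Slc17a7 alone gave 221 FPKM of this sum. Rorb went the other way and was lowest in this pool, at 1.11 FPKM against 1.16 to 1.39 in the others. Over all genes tested, the log2 values of olanzapine pool 1 correlated at 0.974 and 0.972 with olanzapine pools 2 and 3. Control pools 1 and 3 correlated at 0.974. The 10 choroid plexus markers summed to between 29.3 and 5385 FPKM over the 6 pools, with low and high pools in each group. All 10 hepatocyte markers and 6 of 8 nuclear long noncoding RNAs were called higher in the olanzapine group by edgeR at an adjusted p under 0.05, against 1.83% of all genes. No listed marker was at 0 in all pools. The part of the hepatocyte and nuclear RNA differences in the receptor values was not tested.

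The upstream DNA of 3 receptor genes is shown because these genes include the receptor gene with the highest level, Hrh3, and the pair of Gi-coupled muscarinic receptors, Chrm4 and Chrm2, that lay on opposite sides of the control pools in the olanzapine group. The sequences are from RefSeq on mm10 and end just before the outermost annotated start of the gene. CpG dinucleotides are in capitals.
Hrh3, chr2:180104489-180104657, minus strand: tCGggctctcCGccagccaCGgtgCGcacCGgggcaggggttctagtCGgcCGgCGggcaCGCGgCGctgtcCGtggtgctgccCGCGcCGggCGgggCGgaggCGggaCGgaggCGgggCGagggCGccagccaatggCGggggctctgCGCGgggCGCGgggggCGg
Chrm4, chr2:91921939-91922188, plus strand: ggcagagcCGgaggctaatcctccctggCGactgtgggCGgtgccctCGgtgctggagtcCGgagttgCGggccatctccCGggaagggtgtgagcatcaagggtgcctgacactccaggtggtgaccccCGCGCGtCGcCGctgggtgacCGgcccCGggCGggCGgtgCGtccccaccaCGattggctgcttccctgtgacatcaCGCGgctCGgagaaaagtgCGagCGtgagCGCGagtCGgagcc
Chrm2, chr6:36387834-36387990, plus strand: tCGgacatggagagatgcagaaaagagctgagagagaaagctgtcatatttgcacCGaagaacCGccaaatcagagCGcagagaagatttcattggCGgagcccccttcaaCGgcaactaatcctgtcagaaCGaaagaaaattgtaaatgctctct
The 169 bases before Hrh3 held 28 CpG dinucleotides, the 250 bases before Chrm4 held 26, and the 157 bases before Chrm2 held 7. RefSeq promoter windows of 300 bases, which run from 250 bases before a start to 50 after it, matched 7 of the 8 genes. Over 32851 such windows of all genes the median was 7 CpG dinucleotides. The window of Hrh3 held 47, more than 98.6% of all windows, and that of Chrm4 held 30, more than 88.3%. Chrm2 held 16 and Chrm3 held 11. The 2 windows of Hrh2 held 15 and 16, and the 4 windows of Hrh1 held 4 to 39. The Chrm5 window held 3, fewer than the median. It covers chr2:112480768-112481067. The RefSeq span of this minus-strand gene starts farther upstream, at 112536361, where no window was counted. The GC box GGGCGG, read on both strands, occurred 5 times in the Hrh3 window, 4 times in that of Chrm4, once in that of Chrm2 and not in those of Chrm3 or Chrm5, and 35.7% of all windows held it. It occurred 5 times in 1 window of Hrh1, 2 times in another and not in the remaining Hrh1 windows, and once in each Hrh2 window. None of the receptor windows held TATAAA, which was found in 13.6% of all windows. The CCAAT motif occurred in the windows of Hrh3, Chrm4 and Chrm2, in none of the other receptor windows and in 37.4% of all windows. These matches describe the letters of the windows and not the binding of a factor.

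The genes are spread over chromosomes 2, 6, 13 and 19 of mm10. Chrm4 (chr2:91927249-91928688) and Chrm5 (chr2:112479171-112480769) are annotated by GENCODE as short genes of a single exon, while RefSeq extends both upstream. The gene lengths behind the deposited FPKM, 3689 bases for Chrm4 and 2954 for Chrm5, are longer than the GENCODE spans of 1440 and 1599 bases. Hrh3 lies on the same chromosome at chr2:180099465-180104488. Chrm2 (chr6:36388084-36528414) and Hrh1 (chr6:114397936-114483296) lie on chromosome 6, Chrm3 (chr13:9875486-10360847) and Hrh2 (chr13:54192129-54236180) on chromosome 13, and Chrm1 (chr19:8663789-8683587) on chromosome 19. Chrm3 spans 485.4 kb and Chrm4 1.44 kb. No stretch of 31 bases was shared between the GENCODE transcripts of any pair of the 8 genes. Antisense genes overlap 1504 of the 3146 exonic bases of Hrh3 and 1358 of the 5935 of Hrh2. The long noncoding gene 9330158H04Rik overlaps Chrm2, and on the other strand the RefSeq spans of Chrm4 and Chrm5 overlap Mdk and Aven. Other annotated genes overlap 584 of the 6253 exonic bases of Chrm3 and 329 of the 6487 of Chrm1. The strand setting of the counting is not given in the sources used here. It therefore cannot be told whether such partners added reads to a receptor or took reads from it.

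Hrh3 was the receptor with the highest level in the septum. It had 27.5, 36.5 and 29.95 FPKM in control pools 1 to 3, against 31.5, 38.0 and 31.7 FPKM in olanzapine pools 1 to 3, above every other member in every pool. Its mean over the 6 pools exceeded that of 89.1% of the genes tested. In the control group it was followed by Chrm1 with 9.48 ± 2.57 FPKM (SD, n = 3 pools), Chrm4 with 7.59 ± 1.43 (SD, n = 3), Chrm2 with 5.86 ± 1.39 (SD, n = 3) and Chrm3 with 5.69 ± 0.187 (SD, n = 3). The ranges of neighbours in this order overlapped from Chrm1 down to Chrm3, while those of Chrm1 and Chrm4 lay wholly above that of Chrm3. Chrm1 was above Chrm4 in 3 of 3 control pools. Hrh1, at 3.24 ± 0.194 FPKM (SD, n = 3), lay below the range of Chrm3 and above those of Chrm5 (1.23 ± 0.218) and Hrh2 (1.17 ± 0.178), which overlapped each other. In the olanzapine group the order differed in the middle and at the end. Chrm1 (14.3 ± 5.64 FPKM, SD, n = 3) and Chrm4 (10.6 ± 0.710) overlapped, Chrm4 lay above Chrm3 (5.64 ± 2.42), and Chrm3 and Chrm2 (4.08 ± 0.234) overlapped. Chrm5, at 0.636 ± 0.223 FPKM (SD, n = 3), lay below the range of Hrh2 (1.22 ± 0.404).

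**Figure D1:**
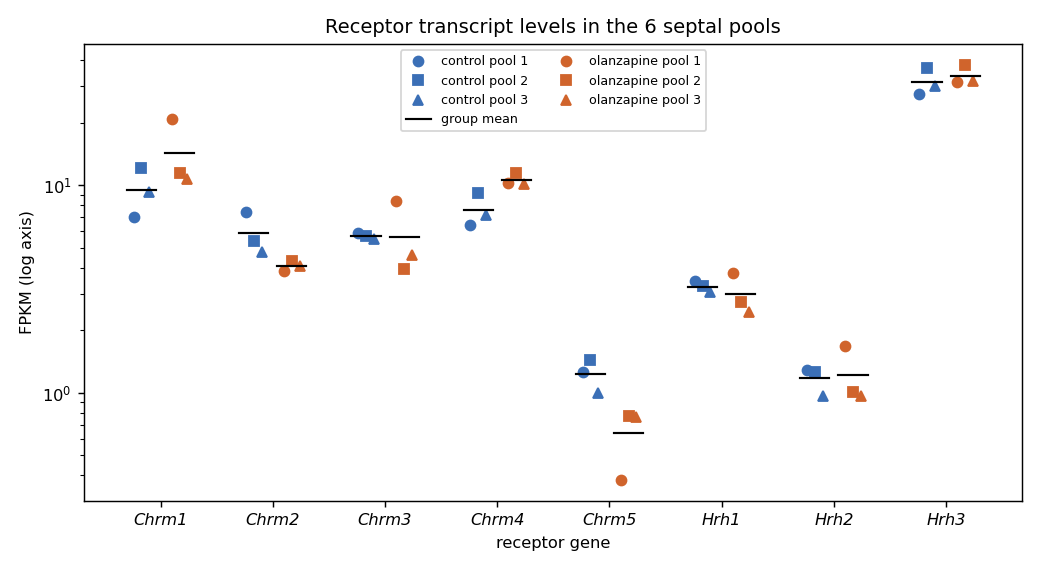
FPKM on a log axis of the 8 receptor genes in each pool of 3 mice, with control pools in blue, olanzapine pools in orange and black lines for group means. Hrh3 lies highest in every pool, and the olanzapine pools lie below all control pools for Chrm2 and Chrm5 and above them for Chrm4.

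Within a family the levels were unequal. Hrh3 made up 87.5% ± 1.92 (SD, n = 3 pools) of the summed FPKM of the 3 histamine receptors in control pools, against 88.8% ± 3.17 (SD, n = 3) in olanzapine pools. Among the muscarinic receptors, Chrm1 made up 31.5% ± 5.71 and 39.6% ± 6.95, Chrm4 made up 25.3% ± 2.15 and 30.9% ± 6.62, and Chrm2 made up 19.9% ± 5.79 and 11.9% ± 2.70 in the control and olanzapine groups, in that order. Summed over the 5 muscarinic receptors, the level was 28.0, 33.8 and 27.7 FPKM in the control pools, against 43.7, 31.8 and 30.3 FPKM in the olanzapine pools. The high sum of olanzapine pool 1 came with its Chrm1 level of 20.8 FPKM. The histamine receptors summed to between 32.2 and 41.0 FPKM in the control pools and between 35.1 and 41.7 in the olanzapine pools, so these ranges overlapped.

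Whether receptor expression differed with olanzapine was tested on the counts with the quasi-likelihood test of edgeR. P-values were adjusted over 17255 genes by the Benjamini-Hochberg method, and all 8 receptors passed the filter on low counts. A gene was called at an adjusted p under 0.05. None of the 8 receptors was called, against 2.32% of all genes tested, and none with a log2 fold change beyond 1 as well, which 1.01% of all genes reached. At an unadjusted p under 0.05 the count was 3 of 8, namely Chrm2, Chrm4 and Chrm5, against 17.6% of all genes. In the same 3 genes the olanzapine pools lay entirely above or below the control pools, which was so for 24.3% of all genes. Chrm4 was the 1 receptor with the olanzapine pools above, as in 13.3% of all genes, and Chrm2 and Chrm5 were the 2 with them below, as in 11% of all genes. DESeq2, the tool used by the study, called the same 3 at an adjusted p under 0.05, where it called 6.69% of all genes, and none of the 8 when a log2 fold change beyond 1 was also required, which 1.72% of all genes reached. With limma on log2(FPKM + 1) the count was 0 of 8, against 1.85% of all genes. The log2 fold changes, positive for a higher level in the olanzapine pools, had a median of 0.01 over the 8 receptors and 0.00 over all genes tested.

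**Figure D2:**
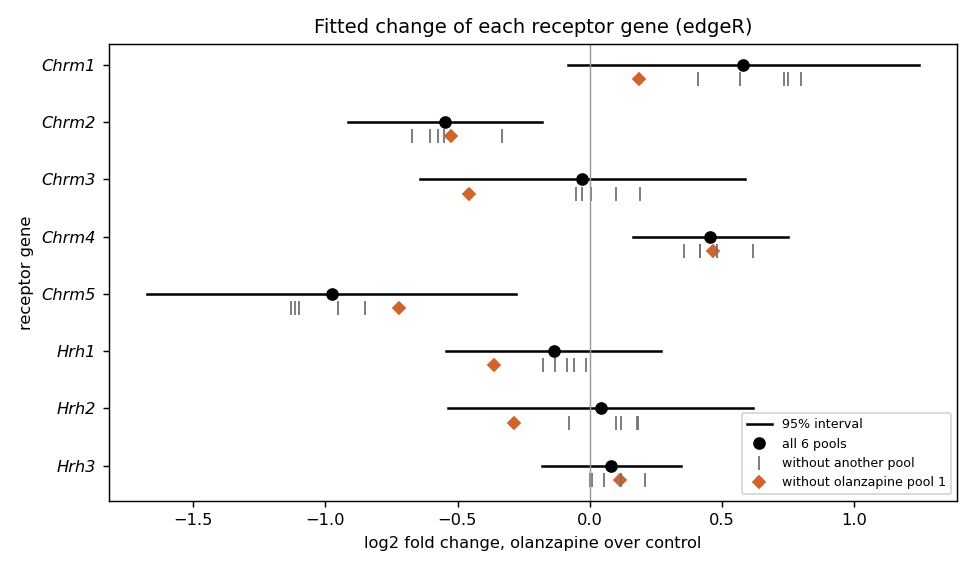
Log2 fold change of each receptor gene, olanzapine over control, with black points and 95% intervals from edgeR on all 6 pools, and below them the values with 1 pool left out. The intervals of Chrm2, Chrm4 and Chrm5 lie clear of 0 before adjustment, and the value without olanzapine pool 1, in orange, shifts most from the black point for Chrm1, Chrm3 and Hrh2.

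Chrm4 encodes M4, a Gi-coupled receptor abundant on striatal projection neurons. It had 6.43, 9.19 and 7.15 FPKM in control pools 1 to 3, against 10.2, 11.4 and 10.1 FPKM in olanzapine pools 1 to 3. Every olanzapine pool was above every control pool, and the 3 olanzapine pools lay close together. The log2 fold change was 0.46 (SE 0.13) with a 95% interval of 0.16 to 0.75, but with an adjusted p of 0.120 from edgeR it was not called. DESeq2 gave an adjusted p of 0.0305. In the fits without 1 pool, the edgeR log2 fold change stayed between 0.36 and 0.62 and the adjusted p between 0.0541 and 0.289. The 10 markers of striatal projection neurons summed to 537, 963 and 727 FPKM in the control pools, against 564, 1170 and 1107 FPKM in the olanzapine pools. EdgeR called none of the 10 and DESeq2 called 1, Rgs9, against 2.32% and 6.69% of all genes. An unadjusted p under 0.05 was reached by 1, against 17.6% of all genes. All 10 had a positive log2 fold change, as did 8747 of the 17255 genes tested, and the median of the 10 was 0.29. In olanzapine pool 1 the striatal sum was near the lowest control pool, while Chrm4 was above every control pool. Their part in the Chrm4 difference was not tested.

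Chrm2 encodes M2, the other Gi-coupled muscarinic receptor and a known autoreceptor of cholinergic neurons. Its level was 7.43, 5.38 and 4.78 FPKM in control pools 1 to 3, against 3.86, 4.32 and 4.07 FPKM in olanzapine pools 1 to 3. Every olanzapine pool was below every control pool, and control pool 1 was the highest. The log2 fold change was -0.55 (SE 0.16) with a 95% interval of -0.92 to -0.18 (adjusted p = 0.134, edgeR). DESeq2 gave an adjusted p of 0.0271. Without control pool 1 the log2 fold change was -0.33, over 1.5 times smaller in size, and with each of the other pools left out it lay between -0.67 and -0.52. The same pool had the highest sum of the 8 septal cholinergic markers, 46.9 FPKM against 28.7 to 38.0 in the other 5 pools. The 8 lateral septum neuron markers were also highest in control pool 1, at 199 FPKM. Of these 8, 0 were called by edgeR or DESeq2, and 2 had an unadjusted p under 0.05, against 17.6% of all genes. The median log2 fold change of the 8 was -0.36, and 7 were negative. The part of either list in the Chrm2 difference was not tested.

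Chrm4 and Chrm2 lay on opposite sides of the control pools. The ratio of Chrm4 to Chrm2 FPKM, chosen after its values were seen and therefore not tested, was 0.865, 1.71 and 1.497 in the control pools, against 2.65, 2.64 and 2.49 in the olanzapine pools. Summed with Hrh3, the Gi-coupled receptors had 41.3 to 51.1 FPKM in the control pools and 45.5 to 53.7 FPKM in the olanzapine pools, and these ranges overlapped.

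Chrm5 encodes M5, a Gq-coupled receptor known from midbrain dopamine neurons, and was the muscarinic receptor with the lowest level. It had 148, 168 and 116 counts in control pools 1 to 3, against 43, 87 and 87 counts in olanzapine pools 1 to 3, or 0.996 to 1.43 FPKM against 0.379 to 0.771. All olanzapine pools were below all control pools, with olanzapine pool 1 the lowest. The log2 fold change of -0.98 (SE 0.30) with a 95% interval of -1.67 to -0.28 was the largest in size among the 8 receptors in this fit. With limma on log2(FPKM + 1), a scale that understates differences of low genes, it was -0.45, and that of Chrm1, at 0.52, was larger. The edgeR value was larger in size than that of 95.2% of all genes tested, and its adjusted p was 0.154. DESeq2 gave 0.0445. Without olanzapine pool 1 the value was -0.72. Chrm5 also had the widest range over the 6 pools, 1.89 on the log2 scale of normalized counts.

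Chrm1 encodes M1, a Gq-coupled receptor abundant in cortical and hippocampal neurons. Its FPKM was 7.01, 12.1 and 9.29 in control pools 1 to 3, against 20.8, 11.4 and 10.7 in olanzapine pools 1 to 3. Olanzapine pools 2 and 3 lay within the control range, and pool 1 lay above all others. The log2 fold change was 0.58 (SE 0.29) with an interval of -0.08 to 1.25 (adjusted p = 0.342, edgeR). Without olanzapine pool 1, the pool with the high cortical markers, it was 0.19 (adjusted p = 0.644, edgeR). Slc17a7, the vesicular glutamate transporter of cortical neurons, had 221 FPKM in olanzapine pool 1 and 3.64 to 18.7 FPKM in the other 5 pools. Of the 9 cortical markers 0 were called by edgeR or DESeq2, and 1 had an unadjusted p under 0.05, against 17.6% of all genes. Their median log2 fold change was 1.73, and their part in the Chrm1 values was not tested.

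Chrm3 encodes M3, a Gq-coupled receptor. Its 3 control pools were close together at 5.89, 5.68 and 5.52 FPKM, and olanzapine pools 1 to 3 were at 8.41, 3.93 and 4.59 FPKM, so pool 1 lay above and pools 2 and 3 below the control range. Over all pools the log2 fold change was -0.03 with an interval of -0.64 to 0.59 (adjusted p = 0.969, edgeR). Without olanzapine pool 1 it was -0.46, with an adjusted p of 0.0760 from edgeR and 0.0107 from DESeq2, a comparison added after seeing the data. The value was just above 0 without control pool 1, 0.10 without olanzapine pool 3 and 0.19 without olanzapine pool 2.

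**Figure D3:**
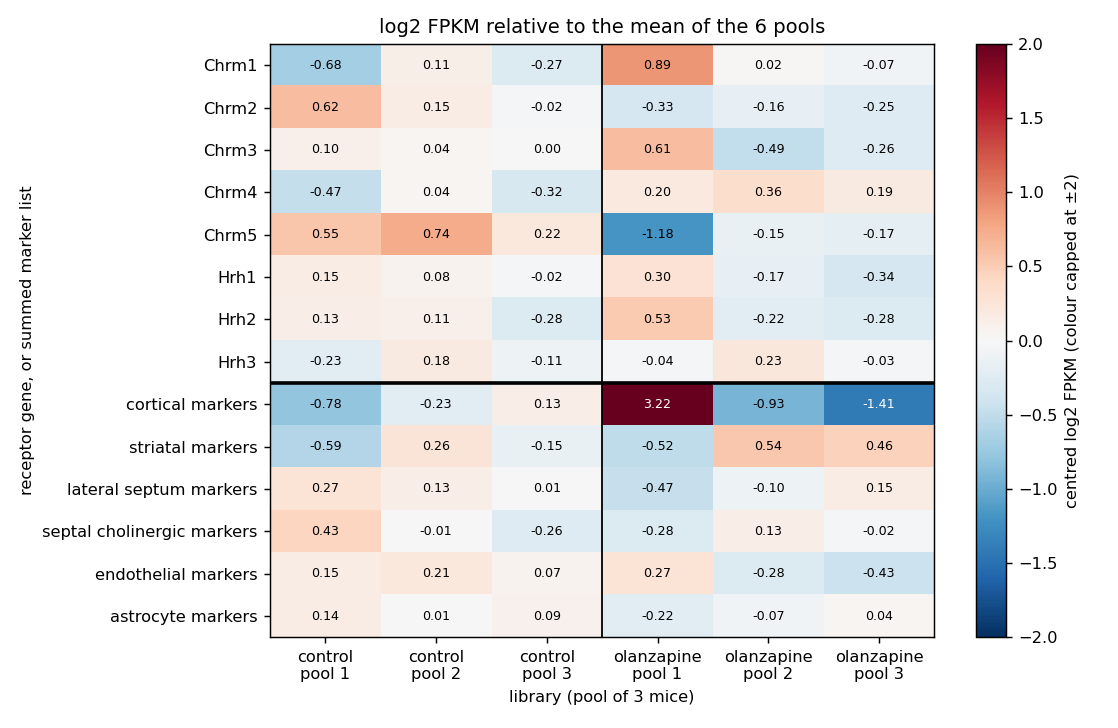
Log2 FPKM of each receptor gene, and of the summed FPKM of 6 marker lists, in each pool relative to the mean of the 6 pools, with red for higher and blue for lower. Olanzapine pool 1 is at 3.22 for cortical markers, and it is the highest pool for Chrm1, Chrm3, Hrh1 and Hrh2 and the lowest for Chrm2 and Chrm5.

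Hrh1, the Gq-coupled H1 receptor, had 3.43, 3.25 and 3.04 FPKM in control pools 1 to 3, against 3.79, 2.74 and 2.45 FPKM in olanzapine pools 1 to 3. As with Chrm3, olanzapine pool 1 was above the control range and the other olanzapine pools were below it. The log2 fold change was -0.14 with an interval of -0.54 to 0.27 (adjusted p = 0.743, edgeR), and -0.36 without olanzapine pool 1 (adjusted p = 0.167). The 8 endothelial markers summed to 65.2, 68.0 and 61.6 FPKM in control pools 1 to 3, against 70.8, 48.4 and 43.5 FPKM in olanzapine pools 1 to 3. The olanzapine pools had the same order as for Hrh1, as they also did for the cortical markers, and the control pools had another order. EdgeR called none of the 8 endothelial markers and DESeq2 called 1, Kdr, against 2.32% and 6.69% of all genes. An unadjusted p under 0.05 was reached by 2, against 17.6% of all genes, and all 8 had a negative log2 fold change. The part of these markers in the Hrh1 values was not tested.

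Hrh2, the Gs-coupled H2 receptor, had 1.28, 1.26 and 0.964 FPKM in the control pools, against 1.68, 1.01 and 0.965 FPKM in the olanzapine pools, so pool 1 was again the highest. Its log2 fold change was 0.04 with an interval of -0.54 to 0.62 (adjusted p = 0.951, edgeR), and it turned to -0.29 without olanzapine pool 1 and -0.08 without control pool 3. Hrh3, a Gi-coupled receptor that acts on histamine release and on the release of other transmitters, varied least. Its range over the 6 pools was 0.39 on the log2 scale of normalized counts, narrower than that of all other members. Its log2 fold change was 0.08 with an interval of -0.18 to 0.34 (adjusted p = 0.762, edgeR), that is a fold between 0.882 and 1.27, and it stayed between 0.00 and 0.21 with 1 pool left out at a time.

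Without olanzapine pool 1, edgeR called 0 of the 8 receptors, against 2.87% of all genes, while 5 had an unadjusted p under 0.05, against 18.8% of all genes. These were Chrm2, Chrm3, Chrm4, Chrm5 and Hrh1. DESeq2 without this pool called Chrm3 and Chrm4, where it called 7.58% of all genes.

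The genes whose levels over the 6 pools were most like those of a receptor were found by the root mean square difference of log2 values centred on each gene's own mean, among 14279 genes with a mean of at least 50 normalized counts. For Chrm1, whose own centred values had a root mean square of 0.47, they were Npy (0.0767), Kcnh3 (0.0792) and Inka2 (0.1003). For Hrh3, with a root mean square of 0.14, they were Stn1 (0.0342), Dnmbp (0.0449) and Anxa3 (0.0487). For Chrm5, with 0.62, they were Gm41414 (0.150), Samd3 (0.191) and Frem3 (0.194). With 6 pools and this many genes, close matches are a description of these pools.

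Around the receptors, 6 lists covered the supply of both transmitters, the nicotinic receptors, the G protein pathways and receptor regulators. Of the 77 genes of these lists that could be tested, edgeR called 1 in each direction, against 1.83% of all genes higher and 0.493% lower. The median log2 fold change was -0.07, and 11 of the 77 had an unadjusted p under 0.05, where the share over all genes was 17.6%. The gene called higher was Rgs4, a GTPase-activating protein that ends Gq and Gi signals. It had 46.4, 59.7 and 56.2 FPKM in control pools 1 to 3, against 98.0, 90.4 and 79.5 FPKM in olanzapine pools 1 to 3. All olanzapine pools were above all control pools, and the log2 fold change was 0.70 (SE 0.11, adjusted p = 0.0233, edgeR). The gene called lower was Kcnj5, a subunit of the inward-rectifier potassium channels opened by Gi-coupled receptors such as M2. Its level was 2.29, 2.33 and 2.23 FPKM in the control pools, against 0.935, 1.49 and 1.29 FPKM in the olanzapine pools, a log2 fold change of -0.91 (SE 0.17, adjusted p = 0.0380, edgeR). Rgs4 was still called without olanzapine pool 1 or 3 but not without any of the other 4 pools, and Kcnj5 was still called only without olanzapine pool 1.

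Of 8 acetylcholine supply genes tested 0 were called by edgeR or DESeq2, and 0 had an unadjusted p under 0.05, with a median log2 fold change of -0.07. Chat, the enzyme that makes acetylcholine, had 3.80 to 6.79 FPKM in the control pools and 3.87 to 5.77 FPKM in the olanzapine pools. Ache, which breaks it down, had a log2 fold change of -0.01 and Slc44a1, a choline transporter, of -0.04, while Slc5a7, the high-affinity choline transporter, had -0.29 (adjusted p = 0.507, edgeR) and Bche had -0.19. Of the 16 nicotinic receptor genes, 12 could be tested and 0 were called by edgeR or DESeq2. An unadjusted p under 0.05 was reached by 1, against 17.6% of all genes. Chrnb2, the subunit with the highest level, had 13.2 to 16.7 FPKM in the control pools and 11.6 to 12.7 FPKM in the olanzapine pools, a log2 fold change of -0.29 (adjusted p = 0.175, edgeR). Chrna4, its usual partner, had -0.08, and Chrna5, at 0.337 FPKM in olanzapine pool 1 and 0.0373 to 0.0911 FPKM in the other 5 pools, had 1.47 (adjusted p = 0.338).

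Histamine supply genes gave 0 calls in 6 tested by edgeR or DESeq2 and a median log2 fold change of -0.18. At an unadjusted p under 0.05 there was 1 gene, against 17.6% of all genes. That gene was Hdc, the enzyme that makes histamine, with 4.59, 5.48 and 8.63 FPKM in the control pools, against 3.25, 4.84 and 4.01 FPKM in the olanzapine pools. Its groups overlapped, and the log2 fold change of -0.65 had an adjusted p of 0.208 from edgeR. Hnmt, which methylates histamine, had -0.03, and Maob, which degrades the methylated product, had -0.26. Hrh4, the remaining histamine receptor, had 0 counts in all 6 pools, which does not show that it is absent.

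In the Gq pathway, edgeR called 0 of 16 genes, and the 3 with an unadjusted p under 0.05 were a share close to the 17.6% of all genes. Plcb4, a phospholipase C, had 8.80 to 10.6 FPKM in the control pools and 6.95 to 7.53 FPKM in the olanzapine pools, with a log2 fold change of -0.41 (adjusted p = 0.0737, edgeR), and was the 1 gene of this list that DESeq2 called. Without olanzapine pool 1, DESeq2 called Plcb4, Itpr3 and Prkca of this list, where it called 7.58% of all genes. Prkcb, a protein kinase C, had a log2 fold change of 0.08. In the Gi and Gs pathways, Kcnj5 was the 1 call among 18 genes with edgeR and with DESeq2 on all pools. The tools called 2.32% and 6.69% of all genes there. Without olanzapine pool 1, edgeR called Kcnj5, Adcy1 and Kcnj6, against 2.87% of all genes. DESeq2 without this pool called these and Kcnj3, against 7.58% of all genes. The log2 fold change of Gnai3 was -0.26 (adjusted p = 0.25, edgeR), and the abundant G protein subunits Gnas and Gnai2 had -0.02 and -0.11. Among 17 receptor regulators, edgeR called Rgs4. Rgs9, a regulator concentrated in striatal neurons, had 0.76 (adjusted p = 0.150, edgeR), and was called by DESeq2 and, without olanzapine pool 1, by both tools. Gprasp1, the regulator with the highest level, had -0.15. Of the other aminergic receptors, those of dopamine, serotonin and noradrenaline, edgeR called 0 of 24 tested and DESeq2 called 1, Htr1a, with a median log2 fold change of -0.14 and 2 at an unadjusted p under 0.05. These were the serotonin receptors Htr1a at -0.58 (adjusted p = 0.148, edgeR) and Htr7 at -0.48 (adjusted p = 0.186, edgeR). The members with the highest levels, the dopamine receptor Drd2 and the serotonin receptor Htr2c, had 0.13 and -0.44.

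**Figure D4:**
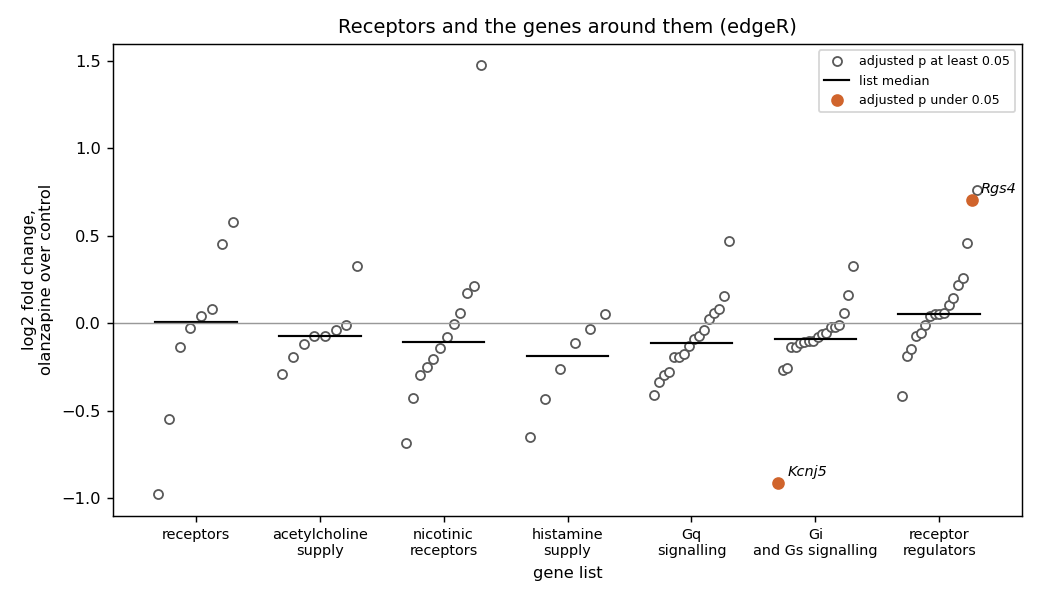
Log2 fold change, olanzapine over control, of every tested gene in the receptor list and the 6 surrounding lists, with black lines at list medians and filled points for genes that edgeR called at an adjusted p under 0.05. Filled points mark Rgs4 at 0.70 and Kcnj5 at -0.91, and the 8 receptors are all open points.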

How the data were processed

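RNA-seq libraries from septal tissue of 3 control and 3 olanzapine pools were used, as the labels group them. Per the labels and the study's methods, the authors used fastp for trimming, HISAT2 with mm10 for alignment and HTSeq for gene counts. They deposited raw counts and FPKM values for each pool. In all 18693 genes with counts in every pool, the deposited FPKM equalled the count divided by a fixed gene length and by the library total, up to 1 scale factor, within 0.001%. Tool versions and the strand setting are not given in the sources used here. No per-sample column was left out (0).

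Counts were normalized with TMM and tested with edgeR 4.0.16 in R 4.3.3 (quasi-likelihood F test, group as the only term, filterByExpr at a minimum count of 10 and total of 15). Standard errors are the log2 fold change divided by the square root of F, and 95% intervals use the t distribution of that fit and are not adjusted for multiple tests. For the likeness of genes, 0.5 was added to normalized counts before log2. The scripts were tested on simulated counts. Each pool had at least 38208153 counts and each receptor at least 43, and no batch is given in the labels. All pairs of libraries differed by more than counting noise. With 3 pools per group the smallest exact permutation p is 0.1, so only the model was used.

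Members and lists were chosen with earlier results of these data known. The genes named are the 8 receptors, the called genes of each list, its 2 genes with the highest FPKM and its 2 with the lowest p, the 3 genes most like Chrm1, Hrh3 and Chrm5, and Slc17a7 of the cortical markers. Chat, Hrh4, Itpr3, Prkca, Adcy1, Kcnj3, Kcnj6, Kdr and Rorb were added after their values were seen. Some genes that this rule names are not reported here. Alternatives were DESeq2 1.42.0, RLE and upper-quartile normalization, no count filter, a mean of at least 50 counts, a replicate block, limma 3.58.1 on log2(FPKM + 1), filtered at a mean of 0.1 FPKM or unfiltered, and on log2(FPKM + 0.1), a fold limit, an unadjusted p, leaving out each pool, and, added after seeing the data, DESeq2 without olanzapine pool 1.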

Additional observations from a re-analysis of the deposited data

How the results depend on the processing

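The count of called receptors stayed at 0 with every edgeR and limma alternative, including each fit without 1 pool (0 to 0), and was 3 with DESeq2, 3 at an unadjusted p under 0.05 and 2 with DESeq2 without olanzapine replicate 1. Of 128 alternative log2 fold changes of the 8 receptors, 6 reversed, all in Chrm3 or Hrh2 and all in fits without 1 pool. Leaving out single pools gave -0.46 to 0.19 for Chrm3 and -0.29 to 0.18 for Hrh2, with Chrm3 at 0.00391 without control replicate 1, 0.19 without olanzapine replicate 2 and 0.0998 without olanzapine replicate 3, and Hrh2 at -0.0786 without control replicate 3, -0.29 without olanzapine replicate 1 and -0.29 also with DESeq2. The 2 called pathway genes became 4 with DESeq2, which called 6.69% of all genes. They became 9 with DESeq2 without olanzapine replicate 1, which called 7.58% of all genes. They became 0 with limma on log2(FPKM + 0.1), 0 with limma on log2(FPKM + 1) and no filter, and 0 with a log2 fold change beyond 1 required. With 1 pool left out there were 0 to 5, the highest without olanzapine replicate 1, where edgeR called 2.87% of all genes. With the replicate number as a block, 0 receptors and 0 pathway genes were called. The labels do not say whether pools with the same number were paired. Same-numbered pools had correlations of -0.02, 0.07 and -0.25 between their deviations from the group means, and differently numbered pools had -0.33 to 0.34. These values cannot decide on a pairing, because the deviations in a group of 3 sum to 0. With the block, calls over all genes went from 401 to 140. Calls over all genes were 1154 with DESeq2, 1341 with DESeq2 without olanzapine replicate 1, 267 with limma on log2(FPKM + 0.1), 174 with a log2 fold change beyond 1 required, and 131 to 508 with 1 pool left out. The order of the 8 receptors by level was the same from TMM-normalized counts per kilobase. The causes of these shifts were not tested. The smallest receptor count in any pool was 43.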
